A study of Mus musculus with 12 samples.

Results

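The comparison described here is that of tamoxifen-treated Cre controls with oil-treated controls, both with Ehf intact, in colonic epithelium of C57BL/6 mice at 6 weeks of age. It uses 8 of the 12 libraries of the series, chosen by their labels: the 4 of the group Control TMX and the 4 of the group Control OIL. Control TMX mice carried the label wild-type, came from a source with the prefix VilCreER and were given tamoxifen. Control OIL mice carried the label wild-type too, came from a source with the prefix EVCER, which the labels do not spell out, and were given sunflower oil. The remaining 4 libraries, the group Ehf IKO, were from EVCER mice with an intestinal knockout of Ehf that were given tamoxifen, and their levels are set beside those of the controls. Tamoxifen, an active Cre and the mouse line all differed between the 2 control groups, so their parts in any difference cannot be told apart. The labels do not state whether mice of a group were littermates, and the p-values measure the spread between these libraries.

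In Villin-CreER mice the Villin promoter drives a tamoxifen-activated Cre recombinase in the intestinal epithelium, and tamoxifen itself is a ligand of oestrogen receptors. The colonic epithelium faces the microbiota and answers it with secreted antimicrobial proteins, such as the Reg3 lectins and Retnlb, and with oxidants. The dual oxidase DUOX2 needs its maturation factor DUOXA2 to reach the apical membrane, where it makes hydrogen peroxide, and NOS2 makes nitric oxide.

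The 8 libraries held 7421411 to 10344161 counts each. Mitochondrial genes took 10.7% to 26.3% of the counts in Control OIL and 12.2% to 26.2% in Control TMX. In both groups replicates 1 and 2 had Xist counts and replicates 3 and 4 had Y-linked counts, so that each group held 2 female and 2 male libraries. The tissue label was checked on a list of 15 epithelial markers, which summed to 9413 to 11700 CPM (counts scaled to library size) in Control OIL and 10260 to 10810 in Control TMX. Markers of other cells were present as well. The 20 fibroblast and matrix genes summed to 459 to 595 CPM in Control OIL and 611 to 1013 in Control TMX, and the 12 smooth muscle genes to 93.6 to 132 and 128 to 214. B and plasma cell genes summed to 65.0 to 122 CPM in Control OIL and 39.1 to 60.1 in Control TMX, with Mzb1, a plasma cell gene, at 0 in all 8 libraries. The part of these cells in the differences below was not tested, and in bulk samples fewer cells of a type and less RNA per cell cannot be told apart.

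Of 15266 genes tested, 13 (0.0852%) were called at an adjusted p under 0.05 by edgeR's quasi-likelihood test, 7 of them higher (0.0459%) and 6 lower (0.0393%) in Control TMX. The 6 that fell included 3 genes of epithelial oxidant production, Nos2, Duox2 and Duoxa2, and the neighbouring genes Cd177 and Ceacam10. Those that rose were Slc30a10, Cpn1, Gm2061, Rfx2, Slc3a1, Por and Atp11a. Across all genes tested 48.4% had a higher fitted level in Control TMX, and the median log2 fold change was -0.0089.

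Of the 13 called genes, 11 matched a promoter window in RefSeq (GRCm38.p6), from 250 bases before to 50 bases after the start site. The windows of 4 genes that fell are shown because they form 2 pairs of neighbours. Duox2 and Duoxa2 lie head to head, with starts 451 bases apart in the files' annotation (GRCm38). Duox2 occupies chr2:122279247-122298449 on the minus strand and Duoxa2 chr2:122298900-122302885 on the plus strand. Cd177 (chr7:24743983-24760311, minus strand) and Ceacam10 (chr7:24777206-24784657, plus strand) also point away from each other, with starts 16895 bases apart. Each window is written 5′ to 3′ on the strand of its gene, and capitals mark matches on either strand to TATAAA, to GGAAGT, which holds the core bound by ETS factors such as EHF, to the palindromic oestrogen response element (GGTCA and TGACC with 3 bases between them), or to the NF-kB consensus.

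Duox2, chr2:122298178-122298477, minus strand: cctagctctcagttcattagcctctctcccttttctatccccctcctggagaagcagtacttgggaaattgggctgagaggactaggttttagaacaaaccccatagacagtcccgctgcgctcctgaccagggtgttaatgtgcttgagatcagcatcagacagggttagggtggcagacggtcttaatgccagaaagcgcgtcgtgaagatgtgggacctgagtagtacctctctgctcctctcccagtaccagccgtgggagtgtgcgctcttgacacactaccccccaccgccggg
Duoxa2, chr2:122298650-122298949, plus strand: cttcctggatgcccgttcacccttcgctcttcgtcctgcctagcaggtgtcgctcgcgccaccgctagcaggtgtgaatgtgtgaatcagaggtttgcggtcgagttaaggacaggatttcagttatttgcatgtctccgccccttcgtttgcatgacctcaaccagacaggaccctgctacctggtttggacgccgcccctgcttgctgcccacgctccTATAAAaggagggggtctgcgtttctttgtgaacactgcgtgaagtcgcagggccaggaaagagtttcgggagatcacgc
Cd177, chr7:24760262-24760561, minus strand: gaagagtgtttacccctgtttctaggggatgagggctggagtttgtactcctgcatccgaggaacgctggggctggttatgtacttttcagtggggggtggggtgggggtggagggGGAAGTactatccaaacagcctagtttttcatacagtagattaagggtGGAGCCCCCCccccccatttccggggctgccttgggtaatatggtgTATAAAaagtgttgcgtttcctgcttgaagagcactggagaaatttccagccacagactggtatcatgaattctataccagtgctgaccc
Ceacam10, chr7:24776954-24777253, plus strand: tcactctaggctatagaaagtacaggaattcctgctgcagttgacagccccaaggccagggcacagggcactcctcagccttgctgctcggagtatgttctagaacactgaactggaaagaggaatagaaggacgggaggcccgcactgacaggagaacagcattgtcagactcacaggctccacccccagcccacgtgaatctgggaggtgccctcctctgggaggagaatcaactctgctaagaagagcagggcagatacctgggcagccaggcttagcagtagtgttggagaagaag

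The windows of Duox2 and Duoxa2 do not touch: 172 bases lie between them. The Duox2 window surrounds a RefSeq start site inside the gene, downstream of the annotated start from which the 451 bases were measured. Duoxa2 had TATAAA at -30 from its start site and Cd177 at -40, while 13.6% of 32851 RefSeq promoter windows held TATAAA. Cd177 also held GGAAGT at -134, a sequence in 23.8% of all windows, and a match to the NF-kB consensus at -86, found in 8.46%. The Duox2 and Ceacam10 windows held none of the searched sequences. No window of the 11 called genes held the oestrogen response element, which 0.07% of all windows held. No overlap between the searched sequences occurred in these 4 windows. These matches describe letters and not binding.

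The 3 called genes of oxidant production, Nos2, Duoxa2 and Duox2, were lower in every Control TMX library than in any Control OIL library. Nos2, the inducible nitric oxide synthase (chr11:78920787-78960254), was at 36.9, 28.5, 39.2 and 33.1 CPM in Control OIL replicates 1 to 4 and at 3.11, 9.64, 6.67 and 3.92 in Control TMX replicates 1 to 4. It fell by 2.55 ± 0.28 on the log2 scale (standard error, adjusted p = 0.00733, edgeR), 5.86-fold. Ehf IKO replicates were at 35.6, 23.9, 34.5 and 18.6 CPM, all above the highest Control TMX library.

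Duoxa2 was at 19.9, 16.0, 18.6 and 20.0 CPM in Control OIL and 4.51, 7.05, 8.26 and 5.33 in Control TMX, a fall of 2.94-fold (log2 -1.55 ± 0.18, adjusted p = 0.00637, edgeR). Duox2, the oxidase that it matures, was at 479, 480, 546 and 606 CPM in Control OIL against 220, 328, 277 and 201 in Control TMX. It fell by 1.04 ± 0.15 on the log2 scale (adjusted p = 0.0262, edgeR). In Ehf IKO Duoxa2 was at 26.2, 20.7, 23.7 and 12.2 CPM and Duox2 at 591, 445, 464 and 223, with replicate 4 the lowest for both. Both genes are members of the head-to-head pair printed above. Other oxidant genes of the antimicrobial list overlapped between the control groups. Nox1, an epithelial NADPH oxidase, was at 20.7 to 39.5 CPM in Control OIL and 6.37 to 24.95 in Control TMX (adjusted p = 0.281, edgeR), and Lpo, lactoperoxidase, at 20.0 to 32.6 and 15.7 to 23.0 (adjusted p = 0.312, edgeR). Noxo1, an organiser subunit of NOX1, had a mean of 4.71 CPM in Control OIL and 5.13 in Control TMX (SD 0.36 and 0.68, n = 4).

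Cd177 and Ceacam10 gave the smallest p-values of the comparison. Ceacam10, a carcinoembryonic antigen-related adhesion protein, was at 32.9, 23.9, 32.6 and 26.4 CPM in Control OIL and 5.91, 7.29, 7.52 and 8.60 in Control TMX, 3.90-fold lower (log2 -1.96 ± 0.16, adjusted p = 2.31e-04, edgeR). Cd177, a surface glycoprotein best known on neutrophils, was at 243, 203, 321 and 286 CPM in Control OIL and 77.2, 92.2, 95.7 and 102 in Control TMX, 2.86-fold lower (log2 -1.52 ± 0.14, adjusted p = 8.75e-04, edgeR). Ehf IKO libraries lay below all Control TMX libraries for both genes, at 0.585 to 2.82 CPM for Ceacam10 and 4.16 to 8.45 CPM for Cd177. The 3 groups did not overlap for either gene, with Control OIL highest and Ehf IKO lowest. The neutrophil genes S100a8 and S100a9 did not pass the count filter, with at most 4 and 6 counts in any of the 8 libraries.

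Lyrm7, which encodes a mitochondrial assembly factor of respiratory complex III, was the sixth gene that fell. It was at 7.80, 8.40, 7.89 and 8.51 CPM in Control OIL and 4.04, 2.84, 2.01 and 3.55 in Control TMX (log2 -1.40 ± 0.22, adjusted p = 0.0353, edgeR). Ehf IKO libraries, at 8.13 to 9.83 CPM, were all above the Control TMX libraries.

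**Figure D1:**
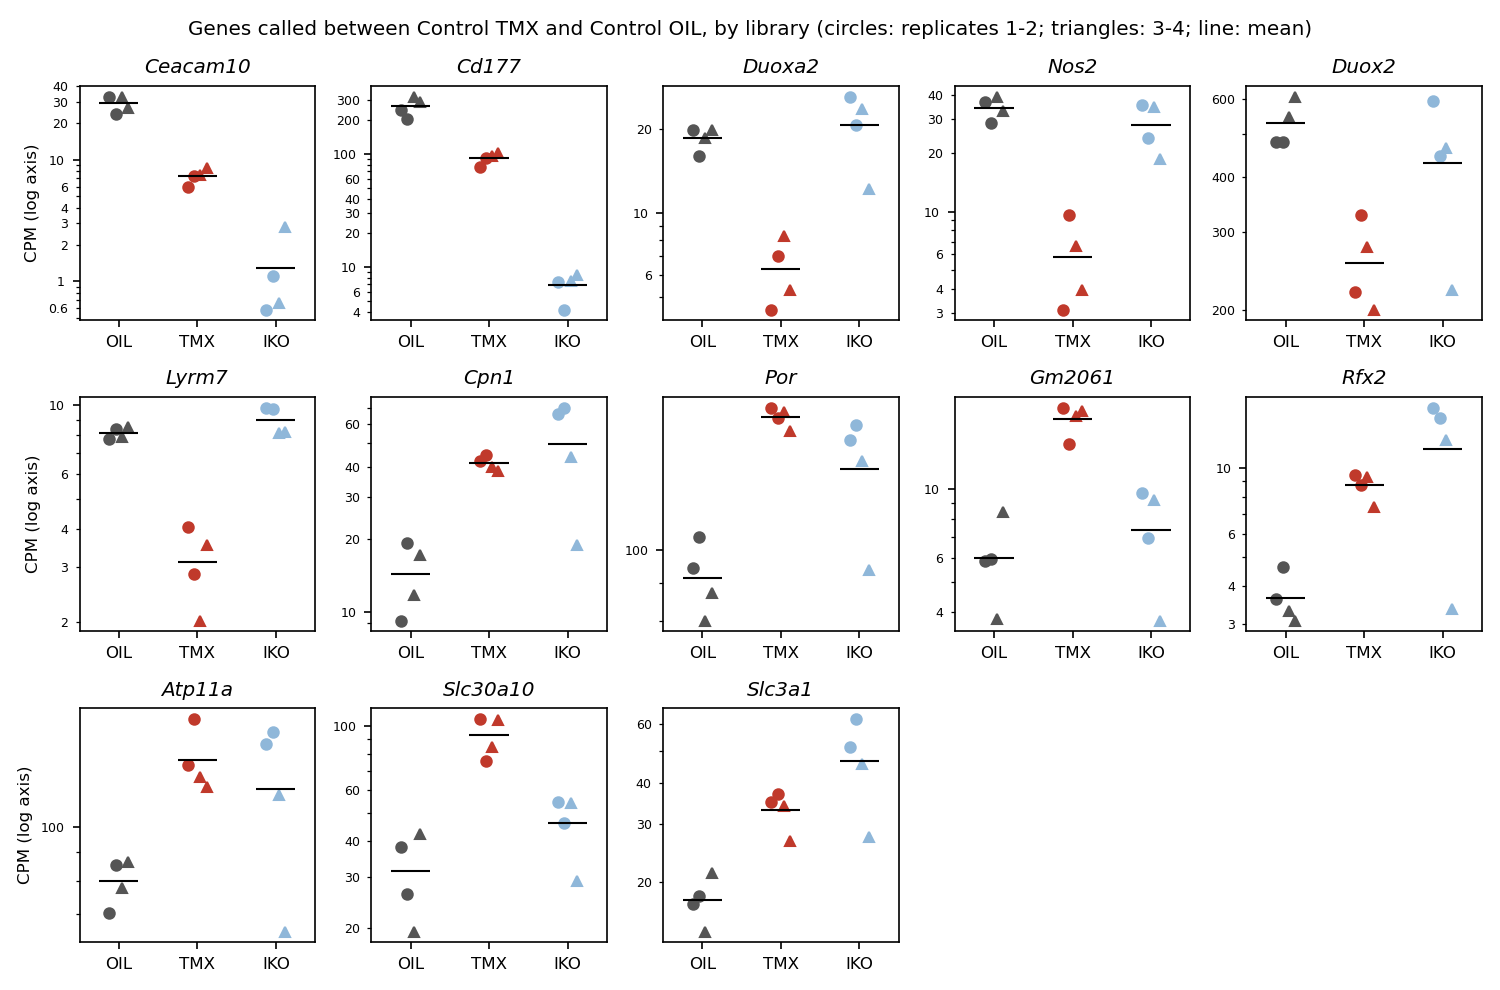
Level of each of the 13 called genes in CPM (log axis) in the 4 libraries of Control OIL, Control TMX and Ehf IKO, with the group mean as a line; the first 6 panels are genes that fell and the other 7 genes that rose. Control OIL and Control TMX do not overlap in any panel, and Ehf IKO lies below both for Ceacam10 and Cd177 and above all Control TMX libraries for Nos2, Duoxa2 and Lyrm7.

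The genes that rose included transporters and a shared electron donor of drug metabolism. Slc30a10, a manganese exporter, was at 38.3, 26.2, 19.5 and 42.3 CPM in Control OIL and 106, 75.8, 84.4 and 105 in Control TMX, 2.93-fold higher (log2 1.55 ± 0.22, adjusted p = 0.0429, edgeR). Slc3a1, the heavy subunit of a cystine and dibasic amino acid transporter, was at 14.1 to 21.3 CPM in Control OIL and 26.6 to 37.0 in Control TMX (log2 0.90 ± 0.15, adjusted p = 0.0440, edgeR). Por, the reductase that passes electrons to microsomal cytochromes P450, was at 94.3, 104, 79.9 and 87.1 CPM in Control OIL and 156, 151.3, 154 and 145 in Control TMX (log2 0.73 ± 0.10, adjusted p = 0.0142, edgeR).

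Cpn1, the catalytic subunit of carboxypeptidase N, was at 9.20, 19.3, 11.7 and 17.2 CPM in Control OIL and 42.3, 44.6, 40.0 and 38.3 in Control TMX, 2.85-fold higher (log2 1.51 ± 0.19, adjusted p = 0.0115, edgeR). Rfx2, a transcription factor best known in ciliated cells, was at 3.07 to 4.64 CPM in Control OIL and 7.38 to 9.48 in Control TMX (log2 1.25 ± 0.19, adjusted p = 0.0353, edgeR). Atp11a, a phospholipid flippase, was at 70.4 to 86.6 CPM in Control OIL and 118 to 156 in Control TMX (log2 0.71 ± 0.11, adjusted p = 0.0382, edgeR).

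Gm2061, a long non-coding RNA gene at chr1:185447116-185455568 on the minus strand, was at 5.85, 5.97, 3.82 and 8.41 CPM in Control OIL and 18.3, 14.0, 17.3 and 17.9 in Control TMX (log2 1.47 ± 0.20, adjusted p = 0.0162, edgeR). It overlaps the start of Slc30a10 (chr1:185454848-185468762, plus strand) by 721 bases in opposite orientation, and reads were counted without strand, so the signals of the 2 genes cannot be told apart fully. For both of these genes every Ehf IKO library lay below every Control TMX library, at 3.76 to 9.72 CPM for Gm2061 and 29.2 to 54.8 for Slc30a10.

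Ehf IKO replicate 4 was the lowest of the 4 Ehf IKO libraries for all 7 genes that rose, at 29.2 CPM for Slc30a10 and 3.76 for Gm2061. Cpn1 was at 66.4, 70.2 and 43.8 CPM in Ehf IKO replicates 1 to 3 and at 18.9 in replicate 4, which was inside the Control OIL range. Rfx2 was at 15.9, 14.7 and 12.4 CPM in Ehf IKO replicates 1 to 3 and at 3.35 in replicate 4. Por was at 141, 148 and 132 CPM in these replicates and at 93.9 in replicate 4, and Atp11a at 140, 147.2 and 114 and at 65.0. Slc3a1 was above the Control OIL range in all 4 Ehf IKO libraries, at 51.1, 62.4, 45.4 and 27.4 CPM.

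The list of antimicrobial defence genes had 33 members, of which 26 passed the count filter. The list was written with earlier results of these data known, so its shares are not independent of the calls. It holds Ceacam10 and Cd177, which gave the smallest p-values and are described above as an adhesion protein and a surface glycoprotein. The counts and the median below include both. Of the 26, 5 fell (Ceacam10, Cd177, Duoxa2, Nos2 and Duox2) beside 0.0393% of all genes tested, and none rose. The fitted level was lower in Control TMX for 21 of 26, with a median log2 fold change of -0.43 beside -0.0089 over all genes. In 11 of 26 every Control TMX library was below every Control OIL library, beside 3.27% of all genes tested, and in none was it the reverse. The 7 members that did not pass were Lyz1, Lcn2, S100a8, S100a9, Pglyrp2, Itln1 and Camp.

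The 6 members whose groups did not overlap but that were not called are named after their values were seen, apart from Retnlb. Reg3b, a bactericidal lectin, was at 503, 338, 2683 and 1193 CPM in Control OIL and 145, 133, 162 and 143 in Control TMX (log2 -3.02 ± 0.68, adjusted p = 0.191, edgeR). Its relative Reg3g was at 98.9, 77.3, 640 and 163 CPM against 13.4, 29.7, 41.2 and 59.2 (adjusted p = 0.279, edgeR), and Control OIL replicate 3 was the highest library for both lectins. Retnlb, a goblet cell antimicrobial protein, was at 70.2, 28.8, 31.6 and 19.2 CPM against 5.91, 8.78, 6.67 and 11.02 (log2 -2.18 ± 0.42, adjusted p = 0.116, edgeR). Pglyrp1, a peptidoglycan-binding protein, Pigr, the receptor that carries IgA across the epithelium, and Tlr4, the lipopolysaccharide receptor, had log2 fold changes of -0.67, -0.38 and -0.34. Members with the opposite sign were Ang4, Noxo1, Tlr5, Nlrp6 and Defb37, and the groups overlapped in each.

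Immune-response lists had lower medians too, with no gene called, and 1 Control OIL library weighed on the MHC class II list. Scores of both lists (mean log2 CPM deviations) overlapped between the control groups. For MHC class II they were -0.446 to 2.451 in Control OIL and -1.053 to -0.191 in Control TMX. For the interferon response and MHC class I they were -0.446 to 0.651 and -0.339 to -0.039. All 8 tested genes of MHC class II were lower in Control TMX, with a median of -2.08. Cd74, the invariant chain, was at 63.1, 22.8, 348 and 28.4 CPM in Control OIL and 10.4, 13.7, 21.9 and 16.3 in Control TMX (log2 -2.87 ± 1.04, adjusted p = 0.317, edgeR). Without Control OIL replicate 3 the list's median was -1.02. Of 36 tested genes of the interferon response and MHC class I, 26 were lower, with a median of -0.15. Irgm1, an interferon-induced GTPase, was at 35.5, 20.1, 37.2 and 36.4 CPM against 19.7, 17.7, 19.5 and 19.6 (adjusted p = 0.127, edgeR). Tnip3, an inhibitor of NF-kB signalling, was at 36.5 to 64.2 CPM in Control OIL and 16.6 to 25.4 in Control TMX (log2 -1.07 ± 0.20, adjusted p = 0.0703, edgeR).

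Most members of the lists of mature colonocyte function had a higher fitted level in Control TMX, and Por was the only member called in the 4 lists that follow. In the xenobiotic metabolism list 30 of 36 tested genes were higher, with a median of 0.19. The mean log2 difference of this list was -0.0069 in replicates 1 and 2 and 0.73 in replicates 3 and 4, so that it was not seen in the first pair. It was 0.17 and 0.54 for PPAR targets, 0.26 and 0.39 for differentiated colonocytes and 0.30 and 0.19 for the brush border. Among differentiated colonocyte genes 30 of 37 were higher (median 0.31), among brush border genes 19 of 25 (median 0.26) and among PPAR targets and fatty acid oxidation genes 22 of 26 (median 0.24). In 6 of the 25 brush border genes every Control TMX library was above every Control OIL library, beside 3.75% of all genes tested. Myo7b, a brush border myosin, was at 332 to 417 CPM in Control OIL and 502 to 651 in Control TMX (log2 0.64 ± 0.12, adjusted p = 0.0696, edgeR). Alpi, intestinal alkaline phosphatase, was at 10.3 to 20.0 CPM against 26.9 to 36.2 (log2 1.10 ± 0.19, adjusted p = 0.0696, edgeR), with 55.8 to 112.1 in Ehf IKO. Krt20, a keratin of surface colonocytes, was at 411 to 508 CPM against 586 to 707 (adjusted p = 0.144, edgeR).

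Lists linked to tamoxifen, Cre and growth gave no called gene. Of 12 tested oestrogen receptor genes and targets 7 were higher, with a median of 0.09, and of 28 p53 targets 13 were higher, with a median of -0.05. Cdkn1a, the p53-induced cell cycle inhibitor, was at 49.3 to 76.6 CPM in Control OIL and 83.7 to 103 in Control TMX (log2 0.56 ± 0.13, adjusted p = 0.127, edgeR). Of 25 DNA repair genes 21 were lower (median -0.33), of 37 cell cycle genes 35 (median -0.40) and of 25 cholesterol synthesis and uptake genes 22 (median -0.29). These falls lay mainly in replicates 1 and 2. The mean log2 differences there were -0.64, -0.94 and -0.43, beside -0.10, -0.05 and -0.10 in replicates 3 and 4. All 17 tested fibroblast and matrix genes were higher (median 0.42), with Col3a1 at 125 to 149 CPM in Control OIL and 155 to 268 in Control TMX (adjusted p = 0.0961, edgeR).

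**Figure D2:**
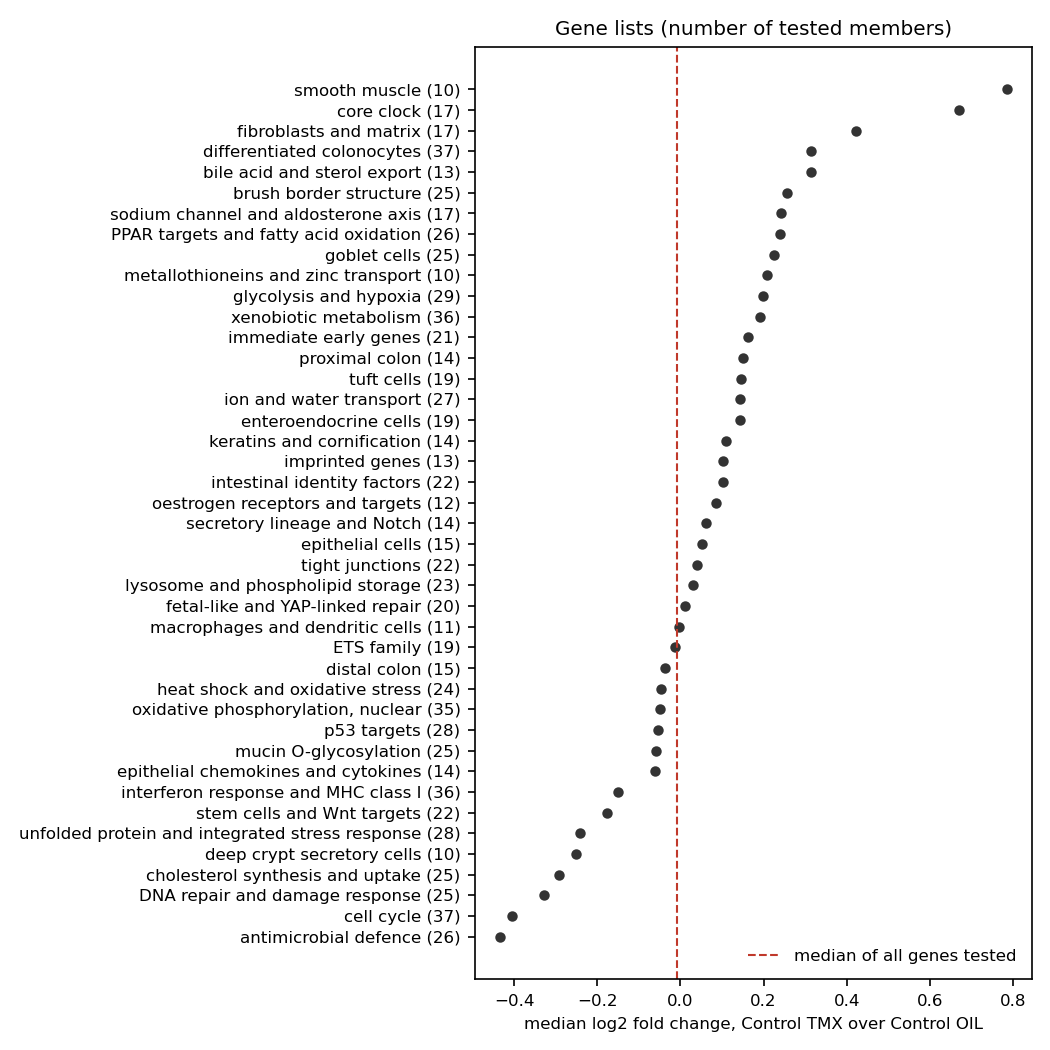
Median log2 fold change (Control TMX over Control OIL) of each gene list with at least 10 tested members, with the number tested in brackets and the median of all genes tested as a dashed line at -0.0089. Antimicrobial defence (-0.43) and cell cycle (-0.40) are lowest, and smooth muscle (0.78) and core clock (0.67) highest.

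The genes that define the design were not called. Ehf was at 479, 453, 394 and 386 CPM in Control OIL, 342, 338, 326 and 374 in Control TMX and 364, 373, 309 and 323 in Ehf IKO, so that Control TMX did not overlap Control OIL (log2 -0.31 ± 0.10, adjusted p = 0.256, edgeR) and overlapped Ehf IKO. These are reads over all exons of Ehf and do not check a deletion of some of them. Vil1 was at 619 to 673 CPM against 698 to 828 (log2 0.26 ± 0.10, adjusted p = 0.289, edgeR). Esr1, the oestrogen receptor alpha, was at 13.1 to 15.7 CPM against 15.8 to 19.3 (log2 0.26 ± 0.12, adjusted p = 0.378, edgeR).

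Present-or-absent patterns were sought among all genes with at least 5 counts in each of the 4 libraries of 1 group and at most 3 over the other, and 3 genes met this. Gm21718 was at 2.51, 5.42, 3.82 and 14.5 CPM in Control OIL, 0 in every Control TMX library and 6.55, 5.83, 7.33 and 2.82 CPM in Ehf IKO, with an adjusted p of 0.127 by edgeR. Gm21718 passed the threshold under 7 alternatives, among them DESeq2 (adjusted p = 4.97e-07), limma-voom (adjusted p = 0.0133) and leaving out Control OIL replicate 4 (adjusted p = 0.00924, edgeR). Taking 3 counts over the group as the floor, Gm21718 was at least 82.5-fold lower in Control TMX, which covers counting error only. Control OIL replicate 4 held most of these counts, and without it the bound was 46.5-fold. Gm7106, whose span (chr14:51314461-51314928) lies inside that of Gm21718 (chr14:51311497-51317768) on the same strand, had 66 counts over Control OIL and 0 over Control TMX, at least 22.3-fold lower (13.4-fold without Control OIL replicate 4). Both EVCER groups had counts of these genes and the VilCreER group had none. Gm44275 on chromosome 6 went the other way, with 6, 8, 17 and 11 counts in Control TMX, 3 over Control OIL and 12, 12, 9 and 0 in Ehf IKO.

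The difference between Control TMX and Control OIL was not the same in replicates 1 and 2, the female libraries, as in replicates 3 and 4, the male ones. A term for this, added after seeing the data, was called in 819 of 15266 genes (5.36%), 323 (2.12%) with a larger log2 difference in replicates 1 and 2 and 496 (3.25%) with a smaller one. Sex and anything else shared by the libraries of a pair, such as handling, cannot be told apart. None of the 13 called genes was among the 819. Their control groups did not overlap, so the same sign in both pairs was fixed beforehand. A call also favours genes of small spread within groups, so their absence from the 819 is not independent support. Ceacam10 differed by -2.06 in replicates 1 and 2 and -1.84 in replicates 3 and 4, Nos2 by -2.51 and -2.76, and Slc30a10 by 1.49 and 1.70.

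Genes of the circadian clock held the largest share of called terms among lists with at least 10 tested members. It was 13 of 17, beside 5.36% of all genes tested. Dbp, an output gene of the clock, was at 3.34 and 3.98 CPM in Control OIL replicates 1 and 2 and 136 and 95.8 in Control TMX replicates 1 and 2, but at 13.6 and 20.4 against 10.8 and 6.73 in replicates 3 and 4. The log2 difference between the pairs was 5.94 (adjusted p = 1.29e-04, edgeR). Per2, a repressor of the clock, was at 12.1 and 15.8 CPM against 125 and 93.7 in replicates 1 and 2, and at 32.8 and 49.5 against 19.7 and 15.4 in replicates 3 and 4. Arntl, the activator that opposes it, went the other way, at 65.1 and 75.1 CPM against 23.1 and 19.4 in replicates 1 and 2 and at 43.5 and 38.6 against 47.2 and 59.4 in replicates 3 and 4. Control TMX replicates 1 and 2 thus stood apart from the other 6 libraries for these 3 genes.

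Cell cycle genes followed the same split, with 18 of 37 called, all 18 below 0, beside 3.25% of all genes tested called below 0. Mcm5, a subunit of the replicative helicase, was at 39.7 and 35.5 CPM in Control OIL against 16.2 and 16.8 in Control TMX for replicates 1 and 2, and at 36.9 and 31.6 against 25.4 and 33.1 for replicates 3 and 4. Rrm2, a subunit of ribonucleotide reductase, was at 16.2 and 13.9 CPM against 4.35 and 4.203, and at 12.7 and 11.9 against 10.8 and 10.5. The mean log2 difference of the cell cycle list was -0.94 in replicates 1 and 2 and -0.05 in replicates 3 and 4.

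In the xenobiotic metabolism list 19 of 36 were called, 18 below 0, beside 5.36% of all genes tested called and 3.25% called below 0. Here the Control OIL libraries differed more between the pairs. Cyp2c65, a cytochrome P450 of the gut, was at 122 and 111 CPM in Control OIL replicates 1 and 2 and 46.5 and 51.3 in replicates 3 and 4, while Control TMX was at 81.3, 83.6, 114 and 135.3. Fabp2, the intestinal fatty acid-binding protein, was at 96.2, 106, 34.4 and 34.3 CPM in Control OIL and 113.3, 93.0, 122 and 117 in Control TMX. Car1, carbonic anhydrase 1 of the colon, was at 2882, 2570, 589 and 881 CPM in Control OIL and 2134, 1810, 2938 and 3697 in Control TMX. For all 3 genes Control OIL replicates 3 and 4 were the lowest of the 8 libraries. The mean log2 difference of the antimicrobial defence list was -0.73 in replicates 1 and 2 and -0.81 in replicates 3 and 4. For 11 of its 26 tested genes the control groups did not overlap, so their same sign in both pairs was fixed beforehand. The near-equal means hold members that differed, such as Ang4 (-1.46 and 1.71, term not called), beside others that did not, such as Pglyrp1 (-0.61 and -0.72). Still, 3 of its 26 tested genes (Saa1, Saa3 and Tlr2) had a called term, 11.5% beside 5.36% of all genes tested. Saa1 (0.33 and -1.56) and Saa3 (0.54 and -1.60) changed sign between the pairs, and Tlr2 (-0.95 and -0.03) did not.

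**Figure D3:**
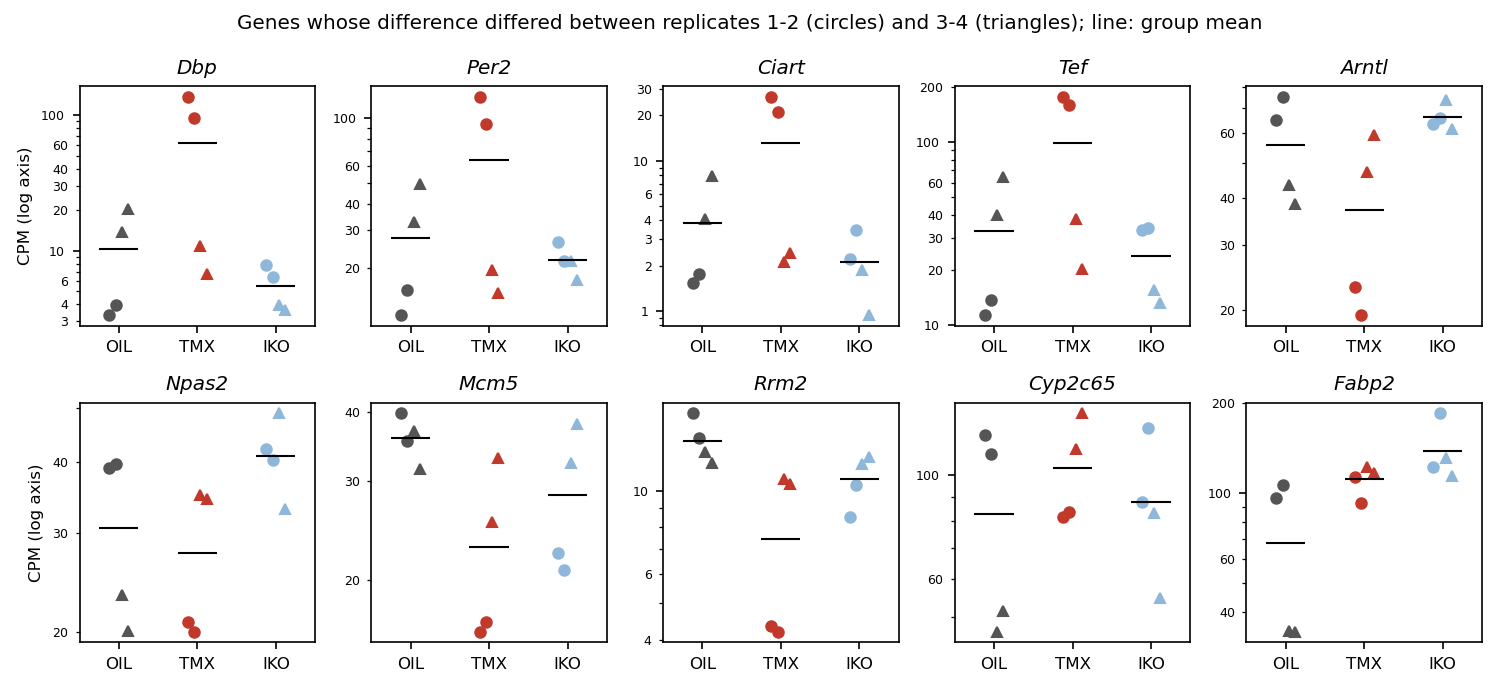
Levels in CPM (log axis) of 10 genes by library, with replicates 1 and 2 as circles, replicates 3 and 4 as triangles and the group mean as a line. In the clock genes Dbp, Per2, Ciart and Tef the circles of Control TMX stand above all other points, and in Cyp2c65 and Fabp2 the triangles of Control OIL stand below them.

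**Figure D4:**
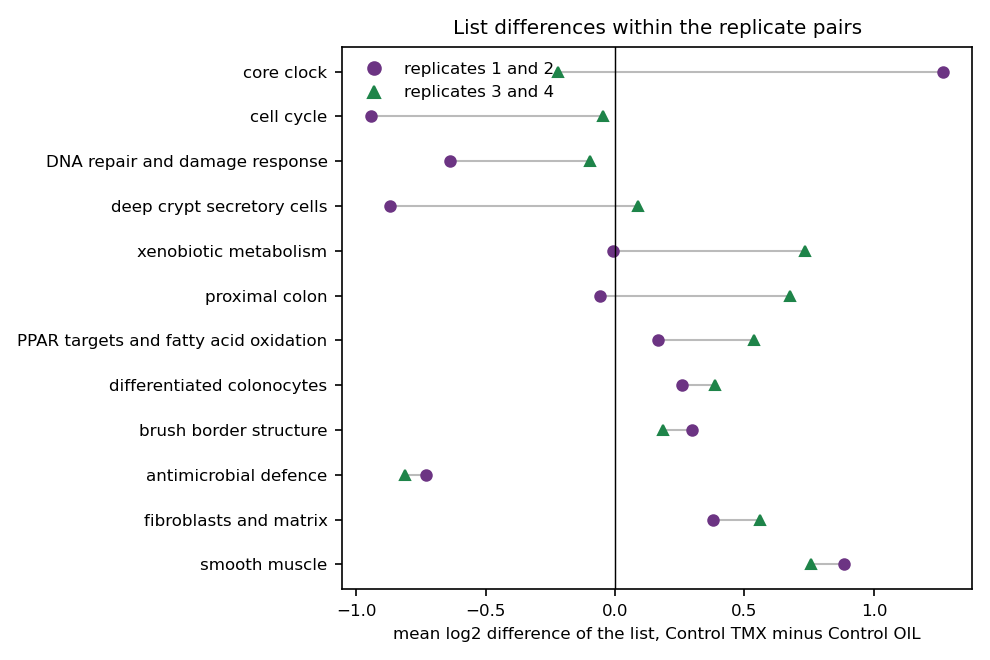
Mean log2 difference (Control TMX minus Control OIL) of 12 gene lists within replicates 1 and 2 (circles) and within replicates 3 and 4 (triangles). The markers lie far apart for core clock (1.27 and -0.22) and cell cycle (-0.94 and -0.05) and close together for antimicrobial defence (-0.73 and -0.81). For 11 of the 26 tested antimicrobial genes the control groups did not overlap, which fixed their sign in both pairs.

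The number of calls changed with the libraries kept. Leaving out 1 library at a time gave 3 to 122 calls: 3 without Control TMX replicate 3, 4 without Control TMX replicate 1, 65 without Control OIL replicate 2, 20 without Control OIL replicate 4 and 122 without Control TMX replicate 4. Ceacam10, Cd177 and Duoxa2 were called in all 8 of these fits and Nos2 in 7, not without Control TMX replicate 3. None of the 7 genes that rose was called without Control TMX replicate 1 or without Control TMX replicate 3, but their differences were about as large. Slc30a10 had a log2 fold change of 1.48 and 1.59 in these 2 fits beside 1.55 with all libraries, and Por of 0.71 and 0.72 beside 0.73. Over 23 alternatives the log2 fold change lay between 1.19 and 1.73 for Slc30a10, 1.20 and 1.69 for Gm2061, 1.35 and 1.79 for Cpn1 and 0.60 and 0.85 for Por. With a fibroblast score as a covariate no gene was called by edgeR (1540 at an unadjusted p under 0.05), and Ceacam10 had a log2 fold change of -2.01 and Nos2 of -1.65. The score did not overlap between the groups, at -0.399 to -0.305 in Control OIL and -0.224 to 0.286 in Control TMX. This fit could therefore not fully separate the score from group. With the pairs of replicates and their interaction as terms 718 genes were called, 12 of the 13 among them, with Slc30a10 at an adjusted p of 0.0536.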

How the data were processed

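Total RNA from colonic epithelium was sequenced in 12 mice, and the 8 control libraries were compared. The authors deposited raw read counts for each gene symbol. Per the file headers they were obtained by running featureCounts from Subread 1.6.1 on Ensembl release 98 exons (GRCm38), unstranded. STAR was the aligner, per the submitters' processing notes; its version was not given in the sources used here. Families of near-identical genes and overlapping genes are uncertain in such counts. The 55304 symbols were used as given, and 53462 had 1 Ensembl identifier.

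Testing used edgeR 4.0.16 (R 4.3.3): filterByExpr by group, TMM scaling and a robust quasi-likelihood fit of the 8 libraries (6 residual degrees of freedom, common biological coefficient of variation 16.9%), with Benjamini-Hochberg adjustment over all 15266 genes tested and a threshold of 0.05. Levels are CPM on the TMM-scaled sizes of all 12 libraries. Standard errors are the fold change over the square root of F. Scores of lists are mean log2 CPM deviations (prior count 2). No 2 libraries held identical values. Scripts were tested on simulated data. Alternatives were DESeq2 1.42.0, limma-voom (limma 3.58.1), other scalings and filters, covariates, a replicate block, a fit of 12 libraries and leaving out each library.

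Named genes were up to 12 of the largest rises and falls among called genes with an average log2 CPM of at least 1, the 8 smallest p-values, up to 3 Gm or Rik genes each way, up to 4 per list by p, genes present in 1 group only, and Ehf, Vil1 and Esr1. Reg3b, Reg3g, Pglyrp1, Pigr, Tlr4, Nox1, Lpo, the members of the antimicrobial list with the opposite sign and the genes of the interaction were chosen after seeing the data. The 51 gene lists and the comparison itself were chosen with earlier results of these data known.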

Additional observations from a re-analysis of the deposited data

Results flagged for a closer look

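Single libraries stood out from the other 3 of their group in 7 of 106 groups of named genes, and chance alone gives about 1 in 20. The measure was the gap to the next library as a share of the group's range. Such a gap can be small in level, as for Irgm1 in Control TMX. Cd74 was at 348 CPM in Control OIL replicate 3, with the next library at 63.1. Reg3g was at 640 CPM in the same library, with the next at 163. Irgm1 was at 20.1 CPM in Control OIL replicate 2, below 35.5 in the next library, and at 17.7 CPM in Control TMX replicate 2, below 19.5. Gm44275 was at 1.80 CPM in Control TMX replicate 3, above 1.03. Ang4 was at 39.0 CPM in Control OIL replicate 1, with the next at 10.3, and Tlr5 at 9.89 CPM in Control OIL replicate 4, with the next at 6.41.

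The difference between Control TMX and Control OIL differed between replicates 1-2 and 3-4 in 13 genes named in the text, by edgeR's interaction term with Benjamini-Hochberg adjustment. Genes were named for this term after seeing the data, so the count follows from that choice. Over all 15266 genes tested the share was 5.36%. The log2 difference between the pairs was 5.94 for Dbp (adjusted p = 1.29e-04), 5.24 for Ciart (1.17e-04), 4.59 for Tef (0.00789) and 4.20 for Per2 (1.29e-04). It was -2.11 for Arntl (1.29e-04), -0.96 for Mcm5 (0.0264) and -1.60 for Rrm2 (0.00674). For Car1 it was -2.64, for Cyp2c65 -1.84 and for Fabp2 -1.77 (each at 1.29e-04). Saa1, an acute-phase protein, was at 175, 161, 295 and 320 CPM in Control OIL and 236, 188, 125 and 86.7 in Control TMX, a difference of 1.88 (8.78e-04). The difference was 2.22 for Saa3 (0.00941), of the same family, and -0.92 for Tlr2 (0.0272), a receptor of bacterial lipoproteins.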

How the results depend on the processing

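Against 13 calls (7 higher, 6 lower), no filter on low counts gave 642 (375 and 267), DESeq2 242 (166 and 76), an Xist and Y-linked score as covariate 39 (28 and 11) and a fibroblast score 0 (0 and 0). The fibroblast score did not overlap between the groups, so that fit could not fully separate it from group. Added after seeing the data, replicates 1 and 2 alone gave 1832 (796 and 1036), replicates 3 and 4 alone 363 (239 and 124), and the pairs with their interaction 718 (394 and 324). Leaving out each library gave 3 to 122 calls, 0 to 67 higher and 3 to 55 lower. A proximal minus distal score gave 11 calls, of them 3 higher, but only 4 of the 13 genes were among them and none of the 7 that rose. Cpn1 is itself a member of the proximal colon list, so the loss of its call was partly built in. The replicate numbers did not pair the libraries (correlations of deviations -0.18, 0.093, 0.013 and -0.289), and the replicate block gave 9 calls, of them 4 higher, with 5 of the 13 genes among them. The 819 genes whose difference differed between replicates 1-2 and 3-4 became 148 to 1532 when 1 library was left out, the fewest without Control TMX replicate 4, and 729 with DESeq2. Over 23 alternatives Ceacam10 and Cd177 lost their call in 1, Duoxa2 in 2, Nos2 in 3, Duox2 in 7 and Slc3a1 in 13. Ehf gained one in 1, replicates 1 and 2 alone (adjusted p = 0.0293, edgeR), and Vil1 and Esr1 in none. The causes of these changes were not tested. With 4 libraries a group and 7421411 to 10344161 counts each, genes of few counts and small differences could go undetected, and counting intervals cover counting error only.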
